A study of Mus musculus with 44 samples.

Results

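The comparison described here is tamoxifen against control in ribosome immunoprecipitates from the synaptosome fraction of mouse brain. Its members were the 6 libraries whose titles name the PeMP_TRAP fraction, controls A to C and tamoxifen D to F, out of 44 libraries in the series. All mice were CX3CR1-CreERT2 (+/-) x RPL10a-GFP flox (+/-), so the controls carried the same Cre and the same reporter allele as the tamoxifen mice. The series' design text gives the floxed allele as fl/fl. Tamoxifen mice received 100 mg/kg in a sunflower seed oil and ethanol mixture at postnatal days 15, 17 and 19. Controls received vehicle by the treatment protocol and were untreated by the design text. Dorsal cortex with hippocampus was taken at postnatal days 28 to 29. The 18 other first-set libraries are total RNA of the homogenate (Input), its immunoprecipitate (MG_TRAP) and total RNA of the synaptosome fraction (SN_input), from the same letters. A second set of libraries, all from tamoxifen mice, holds a synaptosome immunoprecipitate titled SN_TRAP and its input, 5 libraries each.

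Microglia are the resident macrophages of the brain, and they extend fine, motile processes that touch synapses. Translating ribosome affinity purification (TRAP) expresses a GFP-tagged ribosomal protein in a chosen cell type and pulls down tagged ribosomes with the RNA they hold. Here the tag depends on a Cre recombinase that is driven from the Cx3cr1 locus and enters the nucleus when tamoxifen binds it. A synaptosome preparation enriches pinched-off nerve endings together with cell processes attached to them, so its immunoprecipitate samples ribosomes of microglial processes. The driver is not exclusive to microglia, since Cx3cr1 is also active in other macrophages and in some blood leukocytes. The control immunoprecipitate went through the same steps without tamoxifen and measures the background of the pull-down. Tamoxifen and the induced tag came together, so pull-down of tagged ribosomes and an effect of the drug on a gene cannot be told apart. Below, rose and fell mean higher or lower in the tamoxifen than in the control immunoprecipitate. In bulk libraries, fewer cells of a type and less RNA per cell cannot be told apart.

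The deposited values were whole-number HTSeq counts per gene. The control libraries held 1135747 to 4069563 reads assigned to genes, and the tamoxifen libraries 746616 to 12602839. Reads assigned to genes made up 6.60% of all reads in tamoxifen F and 53.4% in control C, the lowest and the highest of the 6. Reads in no annotated feature made up 25.1% in control A, against 1.66% to 8.92% in the other libraries. Reads not aligned ran from 6.72% in control C to 47.7% in control B. Control libraries detected 9443 to 10488 genes and tamoxifen libraries 11736 to 13141. Across the 6529 genes that passed the filter on low counts, log2 values of replicate libraries correlated at 0.22 to 0.38 within controls and 0.40 to 0.54 within tamoxifen, against 0.01 to 0.30 between the groups. These correlations run over genes, which are not independent replicates. The labels do not say that the letters are separate animals, so the p-values below measure the spread between these libraries, which may be technical. Mitochondrially encoded genes took 31.5% of the assigned reads in control B and 23.8% in tamoxifen E, against 1.06% to 9.17% in the other 4 libraries, and this did not follow treatment. The median of their log2 fold changes was 0.09, and it lay below 0 in 11 of the 17 fits that gave it.

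The signal above background was read first from the summed reads of 25 genes typical of homeostatic microglia. This list took 0.259% of the assigned reads in control A, 0.215% in control B and 0.974% in control C. The same genes took 5.51% in tamoxifen D, 2.91% in tamoxifen E and 2.77% in tamoxifen F. Every tamoxifen library lay above every control, the median with tamoxifen was 11.2 times the control median, and the lowest tamoxifen library was 2.84 times the highest control. Control C held the largest background by far among the controls, and it was the deepest of the 3.

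**Figure D1:**
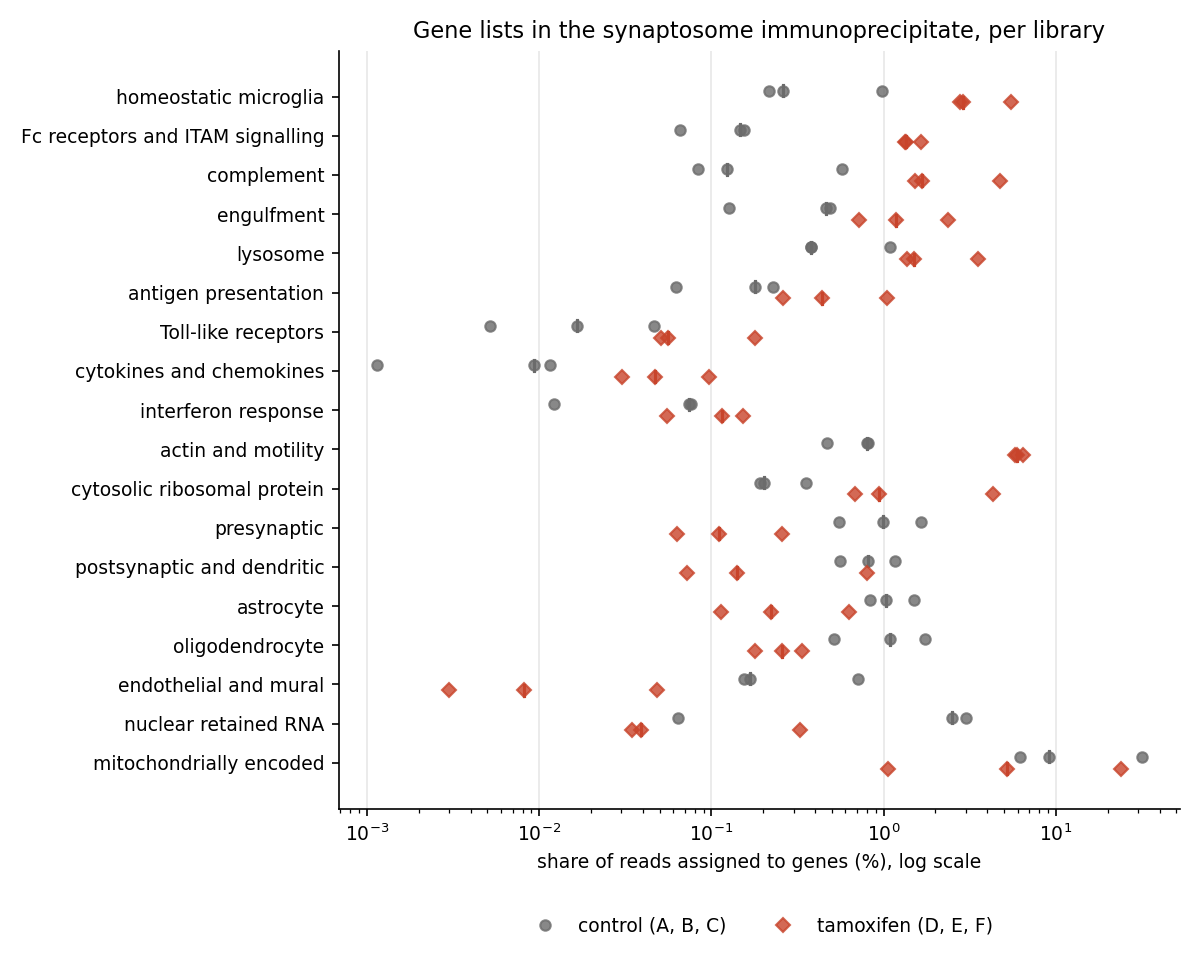
Share of reads assigned to genes (percent, log axis) taken by each gene list in the 6 synaptosome immunoprecipitates. Circles are control libraries, diamonds are tamoxifen libraries and short vertical bars are group medians. The microglial, Fc receptor and actin lists lie higher in every tamoxifen library, the presynaptic, astrocyte, oligodendrocyte and endothelial lists lie lower, and the mitochondrially encoded list overlaps.

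All 25 microglial genes passed the filter, and each had a fold change above 0, against 51.5% of all genes tested. In 2 of them, Golm1 and P2ry13, every control was at or under the floor, so they passed through the tamoxifen libraries alone. Their median log2 fold change was 3.43, against 0.10 over all genes tested, and it ranged from 2.39 to 5.28 over the 18 fits run. For 14 of the 25 the 3 tamoxifen libraries all lay above the 3 controls, which was so for 15.7% of all genes. Only Golm1 of this list passed the test with edgeR's quasi-likelihood model on the 6 libraries. On the same libraries DESeq2 called 8 of the 25 higher (445 of all 6529 genes) and limma voom 9 (153 of 6529). The fit on the 12 first-set immunoprecipitates called 11 of the 25 higher (3.88% of all genes). The fit on all 24 first-set libraries called 12 (5.55% of all genes), with none lower in either. Both fits share dispersions (the spread between replicates) with fractions whose replicates varied less. They also take libraries of the same letter as independent. Their p-values, here and below, can therefore be too small for this comparison.

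Cx3cr1, the fractalkine receptor whose locus drives the Cre, lies on chromosome 9. Its TMM-scaled CPM (reads of the gene scaled to a fixed library size) were 2.87, 193 and 9.64 in controls A, B and C and 537, 1100.2 and 1365 in tamoxifen D, E and F. The groups did not overlap, and control B alone held an appreciable level among the controls. The log2 fold change was 3.88 with a standard error (SE) of 1.52, and it missed the threshold of 0.05 (edgeR adjusted p = 0.18). It passed in the 24-library fit (edgeR adjusted p = 0.036). Csf1r, the receptor for the growth factors that microglia need to survive, was at 14, 77.9 and 269 CPM in controls and 5417, 2220.3 and 1415 CPM with tamoxifen. These groups did not overlap either, and the log2 fold change was 4.65 (SE 1.5; edgeR adjusted p = 0.121, and 0.00817 in the 24-library fit).

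The surface proteins Tmem119 and P2ry12, a purinergic receptor that guides processes toward ATP, stood less clear of the background. Tmem119 was at 25.4, 33.3 and 1128 CPM in controls and 5723, 982 and 592 CPM with tamoxifen, so control C lay above tamoxifen E and F. P2ry12 was at 2.87, 91.9 and 703 CPM in controls and 1421, 418 and 362 CPM with tamoxifen, with control C again inside the tamoxifen range. Their log2 fold changes were 2.62 ± 1.37 and 1.46 ± 1.39 (SE), with edgeR adjusted p-values of 0.351 and 0.651. The endogenous ribosomal protein gene Rpl10a, which encodes the tagged protein, had 0 reads in each control and 1, 9 and 5 reads with tamoxifen, too few to be tested. The counted features were annotated mouse genes, so reads of the transgene and of the endogenous gene cannot be told apart.

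Among the most abundant microglial transcripts, Sparc, a secreted matrix protein, was at 1036, 495 and 3199 CPM in controls and 31811, 12153 and 7236 CPM with tamoxifen. Aif1, the calcium-binding protein IBA1 used to stain microglia, was at 4.92, 275 and 449 CPM and at 4527, 5703 and 4602 CPM. Laptm5, a lysosomal membrane protein of blood-lineage cells, was at 391, 216 and 764 CPM and at 10399, 2119 and 1753 CPM. None of the 3 overlapped between groups, and each passed in the 24-library fit (edgeR adjusted p = 0.00759, 0.0136 and 0.0195) but not in the fit on 6 libraries (0.216, 0.138 and 0.216). Aif1 did not pass in limma voom on 24 libraries with the replicate letter as a block. In the 11 microglial genes whose groups overlapped, Selplg, Olfml3, Fcrls and P2ry12 among them, control C was the highest control except for Ptprc and Irf8.

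Few genes passed the test. In the edgeR fit on the 6 libraries, 16 of 6529 genes rose with tamoxifen (0.245%) and 5 fell (0.0766%), and 967 genes had an unadjusted p under 0.05. The common dispersion was 2.11, against 1.14 in MG_TRAP, 1.23 in SN_input and 0.850 in Input, where the same contrast called 0 genes in each (2436, 399 and 227 at an unadjusted p under 0.05 in edgeR). Fits that differed in libraries, filter, scaling or model gave other counts. The fit that added the 6 MG_TRAP libraries gave 478 higher (3.88%) and 166 lower (1.35%) of 12319 genes, and the fit on all 24 first-set libraries gave 823 higher (5.55%) and 816 lower (5.5%) of 14832. Both fits kept all 21 genes called on the 6 libraries. DESeq2 on the 6 libraries called 445 higher and 398 lower, and limma voom called 153 higher and 42 lower. Scaling by total counts in place of TMM gave 14 higher and 14 lower, and DESeq2's size factors used in edgeR gave 14 higher and 7 lower.

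Each of the 6 libraries carried the count of calls. Without control A, tamoxifen D or tamoxifen F, edgeR called 0 genes, with 1484, 1040 and 842 at an unadjusted p under 0.05. It called 3 without control B, 2 without control C and 2 without tamoxifen E. With control C and tamoxifen F both left out, a choice made after seeing the data, it called 0, with 755 at an unadjusted p under 0.05.

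**Figure D2:**
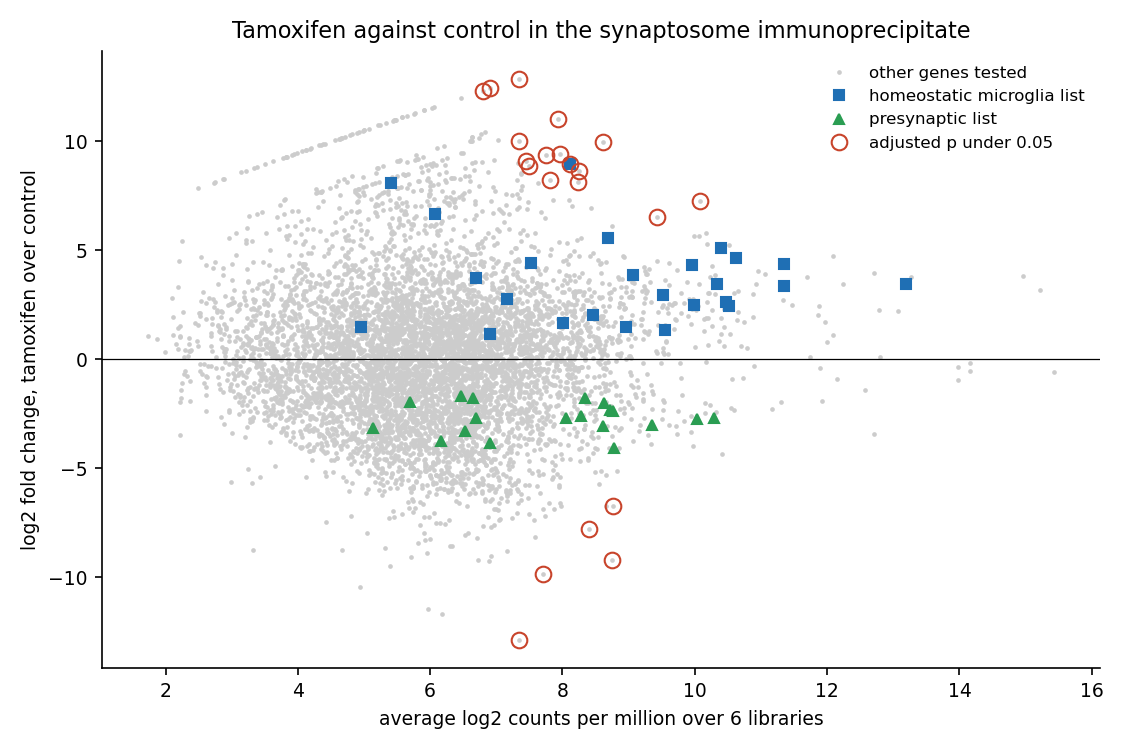
Average log2 CPM over the 6 libraries (horizontal) against the log2 fold change, tamoxifen over control (vertical), for the 6529 genes tested. Squares are the homeostatic microglia list, triangles the presynaptic list and open circles the 21 genes with an edgeR adjusted p under 0.05, and genes with no read in 1 group line up on the slanted edge. The squares all lie above 0, the triangles all lie below 0, and Golm1 is the only square inside a circle.

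Most of the 16 genes that rose were nearly silent in the control immunoprecipitate. In 11 of them every control library was at or under the floor of 3 reads that a count of 0 still allows, which held for 4.64% of all genes tested. They passed the filter on low counts through the tamoxifen libraries alone and were picked as higher, so low control values were partly fixed in advance. For these 11 the fold is a nominal lower bound, the mean tamoxifen CPM over the highest control floor of a library. It takes control counts of 1 to 3 as levels of at most 3 reads, which they can exceed. It also bounds the mean and not each library. Ncf4 in tamoxifen E, at 13.5 CPM, stood against a highest control floor of 2.63 CPM. The remaining 5, Mpeg1, Hcls1, Vsir, Cd52 and Rps6ka1, had more than 3 reads in at least 1 control, up to 103 for Cd52 and 131 for Rps6ka1 in control C. The rule for named genes took 10 of the 16 and 4 of the 5 that fell. The other 7 called genes are named because the list is short, a choice made after their values were seen. The annotated span of 12 of the 21 overlaps another gene, and the strand setting of the counting is not given in the sources used here, so reads of such partners cannot be told apart.

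Fcgr1, the high-affinity receptor for immunoglobulin G, had 1, 0 and 1 reads in controls A, B and C and 2327, 528 and 345 reads in tamoxifen D, E and F. On the CPM scale it was at 319, 246 and 400.3 with tamoxifen, a narrower spread than that of any other gene that rose but Mpeg1. It was at least 122-fold higher with tamoxifen (edgeR adjusted p = 0.0323). Fcgr1 lies on chromosome 3 from 96282909 to 96293969 (GRCm38). Mpeg1, the macrophage pore-forming protein perforin-2, was at 0.41, 3.5 and 0.876 CPM in controls and 747, 566 and 500.1 CPM with tamoxifen. Its log2 fold change was 8.63 ± 2.06 (SE; edgeR adjusted p = 0.0178).

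Susd3, a sushi-domain membrane protein on chromosome 13 from 49230690 to 49248706, had 0, 1 and 0 reads in controls and 7048, 702 and 148 with tamoxifen. It was at least 186-fold higher (edgeR adjusted p = 0.0107). Syngr2, a vesicle membrane protein of the synaptogyrin family that is found outside neurons, was at 0.821, 1.75 and 0 CPM in controls. With tamoxifen it was at 2043, 94.4 and 215 CPM, at least 299-fold higher (edgeR adjusted p = 0.0107). Most of the mean came from tamoxifen D, the deepest library, for Susd3 and Syngr2 as for Blnk, Ncf4 and Relb below.

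Several of the genes that rose have immune roles, a grouping made by reading and not tested. Blnk, an adaptor that links the kinase SYK to downstream enzymes, was at 0, 1.75 and 0.584 CPM in controls and 1251, 127 and 108 CPM with tamoxifen (at least 189-fold, edgeR adjusted p = 0.0178). Ncf4, the p40 subunit of the phagocyte NADPH oxidase, had no read in any control and was at 651, 13.5 and 45.3 CPM with tamoxifen (at least 90.2-fold, edgeR adjusted p = 0.0315). Relb, a subunit of the transcription factor NF-kappa-B, had no read in any control and was at 565, 58.6 and 39.5 CPM (at least 84.1-fold, edgeR adjusted p = 0.0398). In all 3 the control values lay below every tamoxifen value. Vsir, the immune checkpoint protein VISTA, was at 0.821, 3.5 and 2.04 CPM in controls and 1018, 534 and 240.2 CPM with tamoxifen. Cd52, a small surface glycoprotein of leukocytes, was at 3.28, 7.88 and 30.1 CPM and at 876, 1942 and 3609 CPM, with its highest value in tamoxifen F. Their log2 fold changes were 8.15 ± 2.01 and 7.27 ± 1.71 (SE), with edgeR adjusted p-values of 0.0279 and 0.0178.

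Another 7 genes that rose have diverse roles. Hk3, a hexokinase of myeloid cells, was at 1055, 71.6 and 162 CPM with tamoxifen (at least 164-fold higher), and Golm1, a Golgi membrane protein, at 1497, 85.1 and 63.8 CPM (at least 209-fold). Galnt10, an enzyme that starts O-linked sugar chains, was at 976, 25.1 and 38.3 CPM (at least 132-fold), and Mlph, which tethers RAB27A-bearing organelles to myosin, at 843, 74.9 and 48.7 CPM (at least 123-fold). Tamoxifen D held most of the mean in all 4, so these bounds rest on that library. Ecscr, a surface protein first described in endothelial cells, was at least 136-fold higher, at 706, 127 and 241 CPM with tamoxifen, again with most of the mean in tamoxifen D. Their edgeR adjusted p-values were 0.0234 for Hk3, 0.0178 for Golm1, 0.0456 for Galnt10, 0.012 for Mlph and 0.0478 for Ecscr. Hcls1, the cortactin-like actin regulator of blood-lineage cells, rose by 8.21 ± 2.13, and Rps6ka1, a kinase downstream of ERK, by 6.55 ± 1.69 (log2, SE; edgeR adjusted p = 0.0413 for both). Rps6ka1 was at 3633 CPM in tamoxifen D and 100.0 and 340.0 CPM in tamoxifen E and F, so tamoxifen D held most of its level. Hcls1 was at 1018, 66.5 and 256 CPM, and its log2 fold change without tamoxifen D was 6.50.

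**Figure D3:**
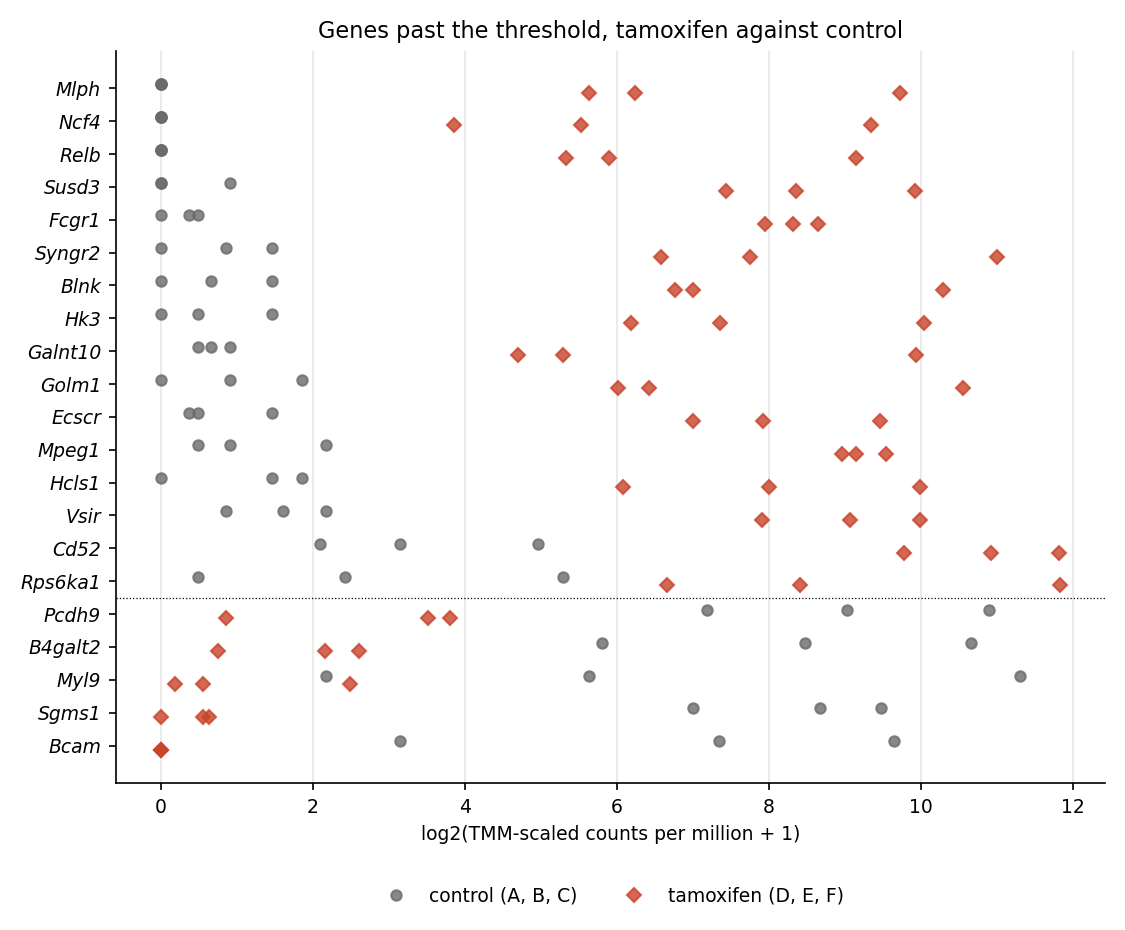
Levels of the 21 genes with an edgeR adjusted p under 0.05, as log2 of TMM-scaled CPM plus 1, in 3 control libraries (circles) and 3 tamoxifen libraries (diamonds). Genes are ordered by fitted log2 fold change, with the 5 that fell under the dotted line. Control values of the 16 genes that rose lie below every tamoxifen value of the same gene, with Cd52 and Rps6ka1 highest in control C, and Myl9 is the gene whose groups overlap.

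Upstream sequences are shown for the gene that drives the Cre and for 2 of the genes that rose, because they bear on the driver and on genes called with tamoxifen. The sequences are the 250 bases before the transcription start in RefSeq (GRCm38.p6), written 5′ to 3′ on the strand of the gene, all minus. Capitals mark GAGGAA, the purine-rich core of sites bound by ETS factors such as PU.1, searched on both strands, so that TTCCTC is the same core on the other strand. Cx3cr1 at chr9:120068297-120068546 holds no match, Fcgr1 at chr3:96293970-96294219 holds 1 on the other strand that ends 49 bases before the start, and Susd3 at chr13:49248295-49248544 holds 1 that ends 107 bases before it.
Cx3cr1: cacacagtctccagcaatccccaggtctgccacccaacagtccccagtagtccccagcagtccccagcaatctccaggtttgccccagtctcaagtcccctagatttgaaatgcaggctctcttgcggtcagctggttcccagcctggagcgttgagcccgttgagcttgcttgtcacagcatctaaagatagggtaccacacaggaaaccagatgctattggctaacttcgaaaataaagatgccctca
Fcgr1: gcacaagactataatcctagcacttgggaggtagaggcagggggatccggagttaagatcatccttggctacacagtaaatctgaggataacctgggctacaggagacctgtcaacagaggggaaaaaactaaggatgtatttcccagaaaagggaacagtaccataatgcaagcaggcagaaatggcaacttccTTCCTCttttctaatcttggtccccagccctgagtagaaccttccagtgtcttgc
Susd3: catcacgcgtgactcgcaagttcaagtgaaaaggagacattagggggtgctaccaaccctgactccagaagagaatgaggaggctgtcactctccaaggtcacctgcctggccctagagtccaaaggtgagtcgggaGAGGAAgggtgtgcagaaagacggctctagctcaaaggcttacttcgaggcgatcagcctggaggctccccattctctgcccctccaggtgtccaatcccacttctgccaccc
Of the 16 genes that rose, 12 had a window in the table, and 5 of their 14 windows (35.71%) held the core. For the 5 genes that fell it was 4 of 9 windows (44.44%), of which 2 are overlapping Pcdh9 windows that hold the same match. The share was 22.59% over windows of the genes tested and 23.25% over all 32851 windows. A match describes the letters only.

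The 5 genes that fell had their reads in the control immunoprecipitate. Bcam, a laminin receptor, was at 799, 7.88 and 162 CPM in controls and had no read with tamoxifen, where it was at least 92.7-fold lower (edgeR adjusted p = 0.012). Control A held most of these reads, and the call was lost without it (0.204) or without any 1 tamoxifen library (0.170 to 0.229). Sgms1, a sphingomyelin synthase, was at 709.9, 127 and 406 CPM in controls and 0.548, 0.465 and 0 CPM with tamoxifen, and fell by 9.84 on the log2 scale (SE 2.33, edgeR adjusted p = 0.0178). B4galt2, a galactosyltransferase, was at 354, 55.1 and 1611 CPM in controls and at most 5.12 CPM with tamoxifen. Pcdh9, a neural protocadherin, was at 1906, 519.9 and 144 CPM in controls and at most 13 CPM with tamoxifen. In these 4 genes no tamoxifen library reached the lowest control. Their log2 fold changes were -7.78 for B4galt2 and -6.74 for Pcdh9 (edgeR adjusted p = 0.0292 and 0.0478).

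Myl9, the regulatory light chain of smooth muscle myosin, also fell, but its groups overlapped. It had 6135, 4 and 167 reads in controls A, B and C and 1, 1 and 4 with tamoxifen, so control A held nearly all of it. The fitted log2 fold change was -9.18 ± 2.01 (SE; edgeR adjusted p = 0.0107), and the call was lost without control A (0.438) or without any 1 of the tamoxifen libraries (0.139 to 0.209), and kept without control B or control C. Markers of vessel walls moved with it. The endothelial and mural list took 0.707% of the reads in control A against 0.155% and 0.167% in controls B and C, and 0.0486%, 0.003% and 0.00817% with tamoxifen. Acta2, the smooth muscle actin, had 7847 reads in control A and 0 to 5 in the other 5 libraries. The part of these reads in the result for Myl9 was not tested.

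Genes of the complement system were read next, since complement tags synapses for uptake by microglia. The 3 chains of C1q were among the most abundant transcripts of the tamoxifen libraries. C1qb was at 243, 409.6 and 3359 CPM in controls and 39840.4, 8982 and 6161 CPM with tamoxifen. C1qa was at 4.51, 271 and 1099 CPM and at 12225, 3807 and 2486 CPM. No control reached a tamoxifen value for C1qa, C1qb or C1qc, and control C was the highest control for each. Their log2 fold changes were 3.75, 3.78 and 3.96 (SE 1.43 to 1.45), with edgeR adjusted p-values of 0.161, 0.166 and 0.143 on 6 libraries and 0.0196, 0.0135 and 0.00972 on 24. Itgam, a subunit of complement receptor 3, was at 0.821, 2.63 and 64.3 CPM and at 1069, 543 and 419 CPM. Of 13 complement genes 8 passed the filter, 6 with a fold change above 0 and 2 below. C3 had 0, 0 and 2 reads in controls and none with tamoxifen.

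Fc receptors and the adaptors they signal through overlapped least among the immune lists. Of 15 such genes 13 passed the filter, all 13 had a fold change above 0 with a median of 4.76, and the groups of 12 did not overlap (15.7% of all genes). In 4 of the 13 every control was at or under the floor, so they passed the filter through the tamoxifen libraries alone. Fcgr1 was called on 6 libraries with edgeR (0.245% of all genes). There DESeq2 called 7 of the 13 higher (445 of all 6529 genes) and limma voom 6 (153 of 6529). With edgeR 7 were called higher in the 12-library fit (3.88%) and 9 in the 24-library fit (5.55%). The summed share was 0.066%, 0.154% and 0.146% in controls and 1.65%, 1.35% and 1.33% with tamoxifen, so the lowest tamoxifen library was 8.6 times the highest control. Tyrobp, the adaptor DAP12, was at 35.3, 435 and 461 CPM and at 10698, 8684 and 5759 CPM (24-library edgeR adjusted p = 0.00751). Fcgr3, a low-affinity immunoglobulin receptor, was at 2.46, 18.4 and 208 CPM and at 6795, 605 and 1186 CPM (0.0082). Fcer1g, the common gamma chain, was at 44.3, 603 and 321 CPM and at 5066, 3419.5 and 2250.1 CPM (0.0305).

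Engulfment and lysosomal genes were split. Of 20 engulfment genes 16 passed the filter, 13 with a fold change above 0, and 10 did not overlap (15.7% of all genes), 2 of the 16 having every control at or under the floor. Cyba, a membrane subunit of the NADPH oxidase, was at 49.6, 3.5 and 119 CPM and at 4797, 1069 and 954 CPM. Dock2, an activator of RAC in leukocytes, had 0, 0 and 1 reads in controls and 2581, 64 and 181 with tamoxifen, at least 75.3-fold higher. Most of its reads lay in tamoxifen D, so this bound leans on that library. Both missed the threshold on 6 libraries (edgeR adjusted p = 0.0769 and 0.071) and passed on 24 (0.00621 and 0.00724). Apoe, the lipid carrier made by astrocytes as well as microglia, was at 2296, 565 and 4432 CPM and at 24237, 4151 and 6538 CPM, with control C above tamoxifen E. Mertk, a receptor for dying cells that astrocytes also make, was at 432, 8.75 and 28 CPM and at 0.411, 67 and 37.1 CPM, an overlap whose fold change turned sign without control A.

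Of 24 lysosomal genes 23 passed the filter and 20 had a fold change above 0, with a median of 1.86. Of the 23, 1 had every control at or under the floor and passed the filter through the tamoxifen libraries alone. Ctss, a cathepsin of microglia, was at 227, 486 and 1745 CPM and at 16577, 5305 and 4804 CPM. Ctsb, a cathepsin of many cell types, was at 555, 630.2 and 3214 CPM and at 5151, 612 and 462 CPM, and its groups overlapped. The log2 fold change of Ctsb was 0.50 ± 1.29 (SE; edgeR adjusted p = 0.894), and its sign turned with total-count scaling, after thinning to equal depth and without tamoxifen D.

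Of 14 Toll-like receptor genes 5 passed the filter and of 14 cytokine and chemokine genes 6, and 1 of the former and 4 of the latter passed through the tamoxifen libraries alone, with every control at or under the floor. Unc93b1, which carries Toll-like receptors to endosomes, was the most abundant of the former, at 0.41, 101 and 553 CPM in controls and 2466, 231 and 227 CPM with tamoxifen. Its groups overlapped, and its fold change turned sign without tamoxifen D. Tlr7, a sensor of single-stranded RNA, had 0, 2 and 0 reads in controls and was at 135, 224 and 51.1 CPM with tamoxifen, at least 52-fold higher. Ccl12, a chemokine, was at 0.821, 0.875 and 0 CPM and at 256, 150.3 and 113 CPM, at least 65.8-fold higher. Neither passed on 6 libraries (edgeR adjusted p = 0.141 and 0.138), and both did on 24 (0.0247 and 0.00662). Il1b and Tnf had no read in any of the 6 libraries.

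Of 16 antigen presentation genes 11 passed the filter, 10 above 0, and of 20 interferon response genes 6 passed, 5 above 0. Of the 11 antigen presentation genes, 1 had every control at or under the floor and passed the filter through the tamoxifen libraries alone. B2m, the light chain of class I molecules, was at 288, 504 and 1262 CPM and at 9336, 1755 and 2367 CPM. The class I heavy chain H2-D1 was at 731, 11.4 and 2.92 CPM and at 4236, 339 and 439 CPM, with control A above tamoxifen E and F. Class II genes H2-Aa and Ciita had no read, and H2-Ab1 and H2-Eb1 had reads in tamoxifen F only, 5 and 4. Ifitm3, an interferon-induced membrane protein, was at 117, 445 and 38.3 CPM and at 86.4, 89.3 and 123 CPM, an overlap in both directions.

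The summed share of actin and motility genes was even across the tamoxifen libraries, although single members were not. Their 20 members took 0.466%, 0.806% and 0.806% of the assigned reads in controls and 6.49%, 5.81% and 5.95% with tamoxifen. All 19 that passed the filter had a fold change above 0, the median was 3.37, and 14 did not overlap (15.7% of all genes). Of the 19, 5 passed the filter through the tamoxifen libraries alone, with every control at or under the floor. Hcls1 was called on 6 libraries with edgeR (0.245% of all genes). There DESeq2 called 9 of the 19 higher (445 of all 6529 genes) and limma voom 5 (153 of 6529). With edgeR 8 genes were called in the 12-library fit (3.88%) and 12 in the 24-library fit (5.55%). Tmsb4x, which encodes the actin-binding peptide thymosin beta 4, was at 1698, 6515 and 4300.0 CPM in controls and 79832, 57785 and 40815 CPM with tamoxifen. It was the most abundant gene of tamoxifen F. Nckap1l, the blood-lineage subunit of the WAVE complex, had no read in any control and was at 46.2, 207 and 135 CPM, at least 49.3-fold higher. Their edgeR adjusted p-values were 0.181 and 0.0837 on 6 libraries and 0.00945 and 0.00724 on 24.

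Cytosolic ribosomal protein genes also lay higher, and the spread inside the tamoxifen group was wide. Of 77 genes 50 passed the filter, all 50 had a fold change above 0 with a median of 2.82, and 30 did not overlap (15.7% of all genes). Of the 50, 1 had every control at or under the floor and passed the filter through the tamoxifen libraries alone. None was called on 6 libraries with edgeR (14 at an unadjusted p under 0.05), and 7 of 75 were called higher on 24, against 5.55% of all genes. The summed share was 0.192%, 0.356% and 0.201% in controls and 0.679%, 0.94% and 4.34% with tamoxifen. Rplp1, an acidic protein of the ribosomal stalk, was at 43.1, 254 and 66.9 CPM and at 305, 972 and 5733 CPM. Many of these genes have near-identical pseudogenes, so reads with more than 1 alignment, 32.3% to 58.2% of all reads in the tamoxifen libraries and 35.7% or less in the controls, were not counted for them, and their levels are uncertain.

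Presynaptic, astrocyte and oligodendrocyte genes took smaller summed shares of every tamoxifen library than of any control, with no member called by edgeR on 6 libraries. DESeq2 on these libraries called 2 of 19 presynaptic, 1 of 14 astrocyte and 2 of 10 oligodendrocyte genes lower and Trf higher. It also called 5 of 20 postsynaptic and dendritic genes lower. Over all 6529 genes DESeq2 called 398 lower and 445 higher. Limma voom called Clu lower, against 42 of all 6529 genes. The presynaptic list took 0.551%, 0.985% and 1.66% of the reads in controls and 0.111%, 0.257% and 0.063% with tamoxifen, and the control median was 8.85 times the tamoxifen median. All 19 presynaptic genes that passed the filter had a fold change below 0, against 48.5% of all genes, with a median of -2.68. For 8 of them every tamoxifen library lay below every control, against 8.73% of all genes. No presynaptic gene was called on 6 libraries with edgeR (4 at an unadjusted p under 0.05), and 5 of 20 were called lower on 24, against 5.5% of all genes.

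Snap25, a SNARE protein of synaptic vesicle release, was at 989, 951 and 3551 CPM in controls and 382, 365 and 77.7 CPM with tamoxifen. Syp, the vesicle protein synaptophysin, was at 467, 1142 and 1895 CPM and at 294, 111 and 26.7 CPM. Neither overlapped between groups, and the log2 fold changes were -2.73 ± 1.39 and -3.02 ± 1.44 (SE; 24-library edgeR adjusted p = 0.0272 and 0.0196). Snap25 passed in no other fit, and Syp only in limma voom on 24 libraries with the replicate letter as a block. By summed share tamoxifen E held the most presynaptic RNA of its group, although Snap25 and Syp were highest in tamoxifen D. Shank1, a scaffold of the postsynaptic density whose RNA travels into dendrites, was at 295, 1929 and 244 CPM in controls and 89.4, 4854 and 637 CPM with tamoxifen. Nrgn, the dendritic calmodulin-binding protein neurogranin, was at 1050.0, 2435 and 2426 CPM and at 457, 2527 and 172 CPM. The postsynaptic and dendritic list thus overlapped, with 0.805% of the reads in tamoxifen E against 0.559% to 1.17% in controls.

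Astrocyte genes took 0.835% to 1.51% of the reads in controls and 0.113% to 0.629% with tamoxifen, and oligodendrocyte genes 0.518% to 1.75% and 0.179% to 0.336%. Clu, the secreted chaperone clusterin, was at 689.8, 739 and 3241 CPM and at 31.5, 348 and 48.7 CPM. Mbp, the myelin basic protein, was at 5574, 958 and 11772 CPM and at 3843, 781 and 255 CPM, an overlap. Trf, the iron carrier transferrin, which the oligodendrocyte list holds, lay the other way at 25, 24.5 and 51.7 CPM in controls and 425, 890.4 and 883 CPM with tamoxifen (edgeR adjusted p = 0.138 on 6 libraries and 0.00995 on 24).

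Vessel wall RNA was highest in control A, and nuclear RNA in controls A and B. Rgs5, a pericyte marker, was at 622, 253 and 574 CPM in controls and 17.7, 6.05 and 2.32 CPM with tamoxifen. The 8 endothelial and mural genes that passed the filter had a median log2 fold change of -6.30, or -5.42 with 3 genes at the tamoxifen floor set to their bound. Nuclear retained RNAs took 3.01% and 2.5% of the reads in controls A and B, 0.0638% in control C and 0.0347% to 0.329% with tamoxifen. Malat1, which stays in nuclear speckles, was at 16184, 20127 and 482 CPM in controls and 411, 284 and 2709.6 CPM with tamoxifen. Control C therefore lay inside the tamoxifen range. The list's share was 18.4 times higher in the median control immunoprecipitate than in the median control SN_input, and the endothelial list's 8.63 times, whereas presynaptic, postsynaptic, astrocyte and oligodendrocyte lists stood at 0.561 to 0.839 times. The part of nuclear or vessel RNA in the genes that fell was not tested.

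Of 7 immediate early genes that passed the filter, which neurons switch on with activity, 6 had a fold change below 0 (48.5% of all genes), and 2 did not overlap between groups (8.73% of all genes). The list's share was 0.0533% to 0.211% in controls and 0.0103% to 0.0533% with tamoxifen, where tamoxifen F met control B. Btg2, an antiproliferative early gene, had a log2 fold change of 1.76 (edgeR adjusted p = 0.718), which turned sign without tamoxifen F. Arc was at 303, 279 and 766 CPM in controls and 0.822, 23.3 and 5.8 CPM with tamoxifen. Dusp1, a phosphatase that turns off MAP kinases, was at 169.9, 44.6 and 854 CPM and at 1.23, 4.19 and 2.32 CPM. Arc and Dusp1 did not overlap between groups, and both passed in the 24-library fit (edgeR adjusted p = 0.00787 and 0.00779) but not on 6 libraries (0.138 and 0.0837).

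Markers of other cells with an active Cx3cr1 locus, or of blood, took small shares of the reads. Of 12 border macrophage genes 2 passed the filter, with no call in any of the 3 edgeR fits. Mrc1, the mannose receptor, had 395, 0 and 0 reads in controls and 222, 286 and 57 with tamoxifen. Stab1, a scavenger receptor, had 705, 1 and 0 reads in controls and 7337, 790 and 206 with tamoxifen. The list's share was 0.0395% to 0.0602% with tamoxifen and 0.0646%, 0.000176% and 0.000369% in controls A, B and C. Control A thus lay above every tamoxifen library, and controls B and C far below. None of the 10 monocyte and neutrophil genes passed the filter, and their share was at most 0.00776% in any library. Red cell genes took 0.0103% to 0.0239% in controls and 0.00236% to 0.00701% with tamoxifen. The lymphocyte and plasma cell list took 0.164%, 0.0125% and 0.388% in tamoxifen D, E and F and 0.00219% to 0.0322% in controls, and control C lay above tamoxifen E. Of its 15 genes 1 passed the filter on 6 libraries, and 3 of 8 were called higher in the 12-library fit (3.88% of all genes) and 3 of 8 in the 24-library fit (5.55%). Igkc, the constant part of the immunoglobulin kappa chain, held 591 and 2193 reads in tamoxifen D and F, 3 in tamoxifen E and at most 1 in a control. The part of these cells in the results was not tested.

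The tamoxifen effect was then set against the RNA that went into the pull-down, by comparing the tamoxifen difference of the immunoprecipitate with that of SN_input. In SN_input the microglial list took 0.216% to 0.546% of the reads in controls and 0.165% to 0.621% with tamoxifen, and its median log2 fold change was 0.07. The control immunoprecipitate, at 0.215% to 0.974%, overlapped this input. The median difference of the 25 genes between the 2 tamoxifen effects was 3.03. Over all genes, edgeR's interaction term called 3 of 11743 (0.0255%), all higher, namely Susd3, Syngr2 and Igkc, with 1887 at an unadjusted p under 0.05. With the replicate letter as a block the count was 23, 17 higher and 6 lower. It was 8 without control A, 5 without control B, 15 without control C, 1 without tamoxifen D, 38 without tamoxifen E and 24 without tamoxifen F of the synaptosome immunoprecipitate. Susd3 was at 20.5, 3.06 and 50.6 CPM in control SN_input and 0.276, 6.98 and 1.69 CPM in tamoxifen SN_input, so the groups overlapped in the input and the 2 highest values there were controls. The fitted difference was 12.97 ± 2.53 (log2, SE; edgeR adjusted p = 0.0188), which is no bound, since the control immunoprecipitates were at or under the floor.

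**Figure D4:**
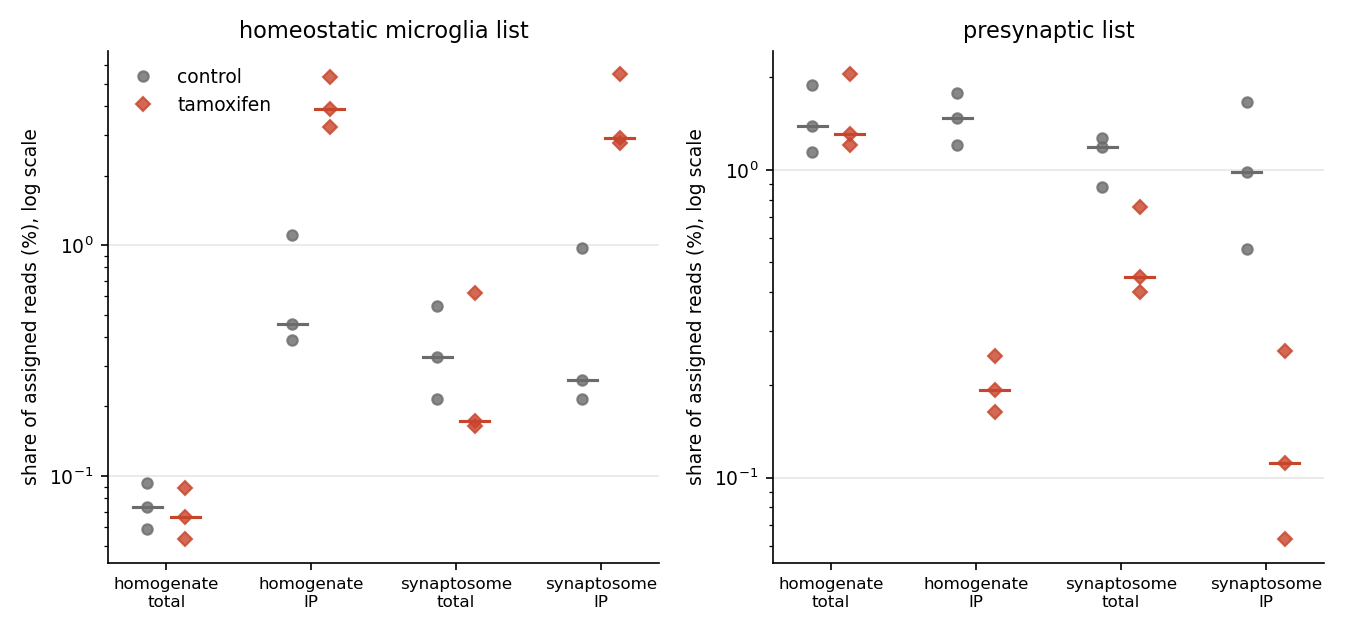
Share of assigned reads (percent, log axis) of the homeostatic microglia list (left) and of the presynaptic list (right) in the 4 fractions of the first set, with 3 control libraries (circles) and 3 tamoxifen libraries (diamonds) each and bars at the medians. Microglial shares separate by treatment in both immunoprecipitates and overlap in both total RNA fractions, and presynaptic shares are lower with tamoxifen in both immunoprecipitates and also in the synaptosome total RNA.

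The presynaptic share also differed in SN_input, at 0.881% to 1.26% in controls and 0.402% to 0.757% with tamoxifen. There the mitochondrially encoded genes took 11.7% to 35.6% of control reads and 15.3% to 65.9% of tamoxifen reads. The part of these reads in the presynaptic share was not tested. On the TMM scale the presynaptic median was -0.21 in SN_input against -2.68 in the immunoprecipitate.

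The immunoprecipitate of whole homogenate gave a separate view of the same induction. In MG_TRAP the microglial list took 0.389% to 1.10% of control reads and 3.26% to 5.35% of tamoxifen reads, and the tamoxifen median was 8.58 times the control median, against 11.2 times in the synaptosome immunoprecipitate. In MG_TRAP and the synaptosome immunoprecipitate, median log2 fold changes were 2.89 and 3.43 for microglial genes, 3.18 and 2.99 for complement, 3.10 and 3.37 for actin and motility, and -2.13 and -2.68 for presynaptic genes. They were 2.19 and 3.56 for engulfment and -3.02 and -1.80 for astrocyte genes. The gaps were wider for nuclear retained RNA, at -0.85 and -4.17, and for the endothelial and mural list, at -3.90 and -6.30. The endothelial medians rest on 4 and 8 genes tested. The second is -5.42 with genes at the tamoxifen floor set to their bound. Gaps were also wider for cytokines and chemokines, at 3.91 and 7.96 (5.42 with genes at the control floor set to their bound). Border macrophage genes were at 5.39 and 1.49 with 2 members tested in the second. The differences of these medians were not tested. Across 6443 genes the 2 sets of log2 fold changes correlated at 0.579, a description over genes from libraries that share replicate letters.

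The interaction of fraction and treatment called 1 of 12319 genes in edgeR (0.00812%), and 1368 had an unadjusted p under 0.05. This gene was Map3k8, a kinase of inflammatory signalling. It was at 117, 207 and 0 CPM in the control synaptosome immunoprecipitates and absent from those of tamoxifen, whereas MG_TRAP held 0 CPM in controls and 36.9, 12.3 and 23.4 CPM with tamoxifen. Its call was lost when control B or any 1 tamoxifen synaptosome library was left out, with total-count scaling and with the replicate letter as a block. A p that misses the threshold does not show that the other genes acted alike in the 2 fractions.

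**Figure D5:**
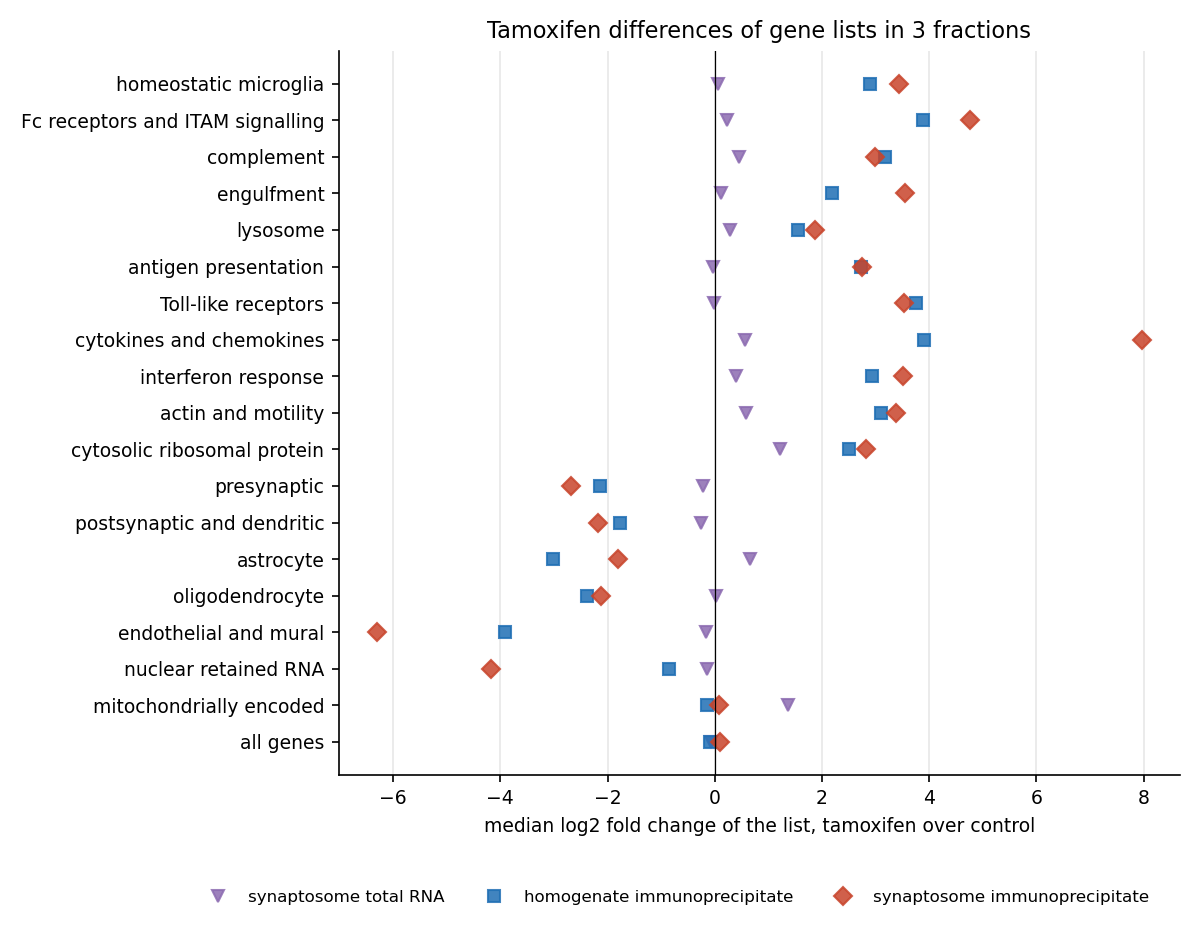
Median log2 fold change, tamoxifen over control, of each gene list in synaptosome total RNA (triangles), the homogenate immunoprecipitate (squares) and the synaptosome immunoprecipitate (diamonds), each from its own edgeR fit on 6 libraries. Both immunoprecipitates lie on the same side of 0 for every list drawn but the mitochondrially encoded one. Over all genes they lie close to 0 on opposite sides, at -0.09 (homogenate) and 0.10 (synaptosome). Total RNA lies nearer to 0 for the microglial and neuronal lists.

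The second set shares no library with this comparison and holds no control mice, so it was read as immunoprecipitate over its own input, SN_TRAP against SN_input, 5 libraries each. In edgeR 361 of 11846 genes were higher in SN_TRAP (3.05%) and 2623 lower (22.1%). With the replicate letter as a block 135 were higher and 3765 lower. Of the 16 genes that rose with tamoxifen, all were tested there, 15 had a log2 fold change above 0 and 5 were called higher, namely Mpeg1, Cd52, Vsir, Rps6ka1 and Hcls1. None of the 16 was called lower. Vsir was higher by 3.05 and Rps6ka1 by 2.99 on the log2 scale (edgeR adjusted p = 0.00108 and 0.00049). Mlph was the exception in sign, at -1.18 (0.821). Of the 5 genes that fell, 4 were tested and all were below 0, with Myl9 at -10.67 and Sgms1 at -9.28 called lower (0.000257 for both).

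For the lists, against 3.05% of all genes, the second set called 15 of 25 microglial genes higher with a median of 2.51, 8 of 13 Fc receptor genes, 13 of 20 actin genes and 56 of 75 ribosomal protein genes. It called 6 of 18 engulfment genes higher and 2 lower, and none of 8 Toll-like receptor genes or 7 cytokine genes in either direction with edgeR (0 and 1 at an unadjusted p under 0.05). It called 7 of 20 presynaptic genes lower, against 22.1% of all genes. Csf1r was higher by 3.03 and Tmem119 by 2.51 (edgeR adjusted p = 0.000228 and 0.000955), and P2ry12, at 1.30, was not called (0.238). Apoe was lower in SN_TRAP, at -0.71 (0.0075). Of the 478 genes called higher in the 12-library fit, 446 were tested in the second set, where 66 were higher (14.8%, against 3.05% of all genes) and 30 lower (6.73%, against 22.1%). Of the 166 called lower, 148 were tested and 40 were lower in SN_TRAP (27.0%, near the 22.1% of all genes). These 66 were 18.3% of the 361 genes higher in SN_TRAP.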

How the data were processed

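The authors deposited 1 table of whole-number HTSeq counts per gene for each library. Per the submitters' processing notes the tools were FastQC 0.11.7, Trimmomatic 0.38, Bowtie2 2.3.5, STAR 2.7.0d, HTSeq 0.9.1 and edgeR. The genome build, the annotation and the strand setting are not given in the sources used here. Per the labels' protocols, libraries were made with SMART-Seq v4 and NEBNext Ultra II. A deposited table of log2 values by the authors was used only to check the column labels: each of its 24 columns correlated best with its own count file (lowest r 0.978 over 13634 genes).

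Gene names and coordinates came from GENCODE M21 (GRCm38), and promoters from RefSeq (GRCm38.p6). Rows that name no gene (reads not aligned, not unique, ambiguous or without a feature) were left out of library sizes; 6.60% to 53.4% of the reads of the 6 libraries were assigned to genes. The comparison used edgeR 4.0.16 in R 4.3.3: filterByExpr with a minimum count of 10, TMM factors, glmQLFit and glmQLFTest on the 6 libraries, with Benjamini-Hochberg adjustment over all genes tested and a threshold of 0.05. Alternatives were DESeq2 1.42.0, limma 3.58.1 (voom), other scalings, no filter, thinning each library to 746616 reads, leaving out each library, and fits on 12 and 24 libraries. Differences between fractions were interaction terms in edgeR fits on 12 libraries each. A count of 0 was taken to allow up to 3 reads, 0.411 to 3.48 CPM by library. Counts of 1 to 3 were treated alike, although their true level can exceed 3 reads. Floors cover counting error only, because amplified reads that carry no molecular identifier can be copies of 1 molecule. The edgeR script was tested on simulated data in which the true changes were set. Its pass mark applied at a dispersion far lower than that of these libraries, so it checks the code and not the recovery here.

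Named genes were Cx3cr1, Rpl10a, Tmem119, P2ry12 and Csf1r, the 3 most abundant members of each list, and the 10 largest called changes each way with an average log2 CPM of at least 4 and no overlap of groups. Others with values were chosen after seeing them. The members and lists were chosen with earlier results of these data known. Deviations of same-lettered libraries from their group means correlated at 0.0177 to 0.134 between first-set fractions and at -0.00589 to 0.0114 in the second set. Between PeMP_TRAP and MG_TRAP the own letter lay above every other letter for B, D, E and F (for D 0.132 against 0.0366). It lay below another letter for A and C there, and for most letters in the other checks. Whether letters share material is not settled by this. Main fits did not treat letters as pairs, and fits with the letter as a block are given beside them.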

Additional observations from a re-analysis of the deposited data

Results flagged for a closer look

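Among the 4 genes whose tamoxifen effect differed between fractions in edgeR's interaction test, Map3k8 differed between the synaptosome and homogenate immunoprecipitates by -22.9315 on the log2 scale. Its reads lay in synaptosome controls A and B and in all 3 homogenate tamoxifen libraries, so this fitted value depends on the handling of libraries at 0 and is no bound.

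Against synaptosome total RNA the tamoxifen effect was larger in the immunoprecipitate by 10.3047 for Syngr2, 12.966 for Susd3 and 13.4498 for Igkc on the log2 scale, as fitted. Every control immunoprecipitate was at or under the floor of 3 reads for these genes, so the fitted values are no bounds either. The reads of Igkc lay in tamoxifen D and F of the immunoprecipitate, with 3 reads in tamoxifen E.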

How the results depend on the processing

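The count of genes that differed between the tamoxifen and control immunoprecipitates, 21 on the 6 libraries, moved with nearly every choice. It was 0 without the filter on low counts (2186 of 19545 at an unadjusted p under 0.05), 2 after thinning to equal depth, 195 with limma voom, 843 with DESeq2, 644 on 12 immunoprecipitates, 1639 on 24 libraries and 1240 on 24 libraries with limma voom and the replicate block, of which 20 of the 21 were part. Total counts gave 28, size factors from DESeq2 21, and mitochondrially encoded genes left out 19. Leaving out 1 library gave 0 to 3, with Syngr2 kept without tamoxifen E and Bcam and Myl9 without control B or control C, and leaving out control C and tamoxifen F gave 0. Size factors from DESeq2 shifted the median log2 fold change of all genes by -0.15 and total counts by -0.36. The interaction with the homogenate immunoprecipitate called 1 gene, 0 with total counts, 6 without the filter, 0 with the replicate block and 0 to 2 without 1 library. The interaction with synaptosome total RNA called 3, 34 without the filter, 23 with the replicate block and 1 to 38 without 1 library. The second set called 2984, 5190 without the filter and 4063 to 4581 without 1 SN_TRAP library, and 3900 with the replicate block, which took the genes higher in SN_TRAP from 361 to 135 and the median log2 fold change of all genes from -0.92 to -7.56. The cause of these changes was not tested. Of 92 genes followed over the fits, 78 kept the sign of their fold change in each. The 14 others were Ctsb, H2-K1, Unc93b1, Ifitm3, Mrc1, Bpgm, Hbb-bs, Hba-a1, Shank1, Flt1, Btg2, mt-Rnr2, mt-Rnr1 and Mertk. List medians kept their sign except for the erythrocyte and mitochondrially encoded lists. The shallowest library, tamoxifen F, cannot show levels under 3.48 CPM, and 3 libraries a group limit every test.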
